A study of Mus musculus with 49 samples.

Results

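Tumours that were given an antibody to PD-1 and did not respond were compared with tumours given vehicle. They were grown from CT26 cells, a mouse colorectal carcinoma line, in Balb/c mice. The members were taken from the labels alone: 13 tumours labelled anti-PD-1 with response NR and 9 tumours labelled vehicle, 22 of the 49 tumours in the series. All 9 vehicle tumours also carry the response NR, and the labels define neither R nor NR.

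Treatment began on day 7 after the tumour cells were injected and ran for 7 days. The anti-PD-1 NR group had 2 doses of 200 µg of antibody, and the vehicle group had 200 µl a day of a DMSO-PEG400 and water mixture, with no control antibody named. Whether the antibody group also received that mixture is not stated. The side comparisons use 3 further groups: 4 tumours labelled anti-PD-1 with response R, 4 labelled anti-PD-1 plus celecoxib with response NR, and 7 labelled celecoxib, a COX-2 inhibitor given at 30 mg/kg a day. The tissue label places the tumours at day 7 of treatment while the RNA protocol speaks of day 4, so the day of collection is uncertain. No hour of collection is given in the sources used here. Nothing in the labels says that the tumours of a group came from different animals, so p-values refer to the variation among these samples, which may be technical.

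PD-1 is an inhibitory receptor of activated T cells, and antibodies against it can release those cells to attack a tumour. The question addressed here is what RNA differences accompany the antibody in tumours labelled as not responding. The circadian clock, which enters the results below, is a loop in which the activators Arntl and Clock switch on the Per, Cry and Nr1d genes, whose proteins then hold the activators back. Its output factors Dbp, Tef and Hlf pass the rhythm to further genes, and glucocorticoid hormone can set the clock of peripheral tissues and also induces Per1.

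Total counts ranged from 4586727 to 13671294 over the 22 libraries, with a median of 8081013 in anti-PD-1 NR and 8730438 in vehicle. The CT26 identity was not established from markers here, and the markers of colon epithelium were mixed. Krt20, a keratin of gut epithelium, was counted in every library. Its median was 35.8 CPM, the count scaled to the library total, in anti-PD-1 NR and 68.5 CPM in vehicle. Epcam had medians of 0.211 CPM and 0.258 CPM in those groups. Cdx1, Cdx2, Vil1 and Muc2 had means of at most 0.255 CPM over the 22 libraries. Some libraries stand apart. Vehicle replicate 8 had the lowest mean on 15 of 16 lists of immune genes among the vehicle tumours and the highest on the hypoxia list. Vehicle replicate 6 carried adipocyte transcripts, with a list mean of 6.65 log2 CPM against 2.35 in the next vehicle tumour. Anti-PD-1 NR replicates 3, 9 and 13 carried skeletal muscle transcripts, with list means between 3.48 and 4.41 log2 CPM. Vehicle replicates 2 and 7 had lower means of 2.03 and 2.60 on that list. For some of the calls and medians given here, the value without such libraries follows. The gene lists were chosen with earlier results of these data known.

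The comparison found few genes, and most of them belong to the circadian clock. No hour of collection is given, so for clock genes the antibody and a difference in hour between groups cannot be told apart. With edgeR's quasi-likelihood test and Benjamini-Hochberg adjustment, 10 of 14247 genes (0.0702%) passed an adjusted p of 0.05 in anti-PD-1 NR against vehicle. Of these, 8 (0.0562%) fell and 2 (0.014%) rose. The genes that fell were the clock outputs Dbp and Tef, the clock repressors Per2, Per3, Cry2 and Nr1d2, and the genes Fkbp5 and Car11. The genes that rose were the clock activator Arntl and Spon2, a secreted matrix protein. At an unadjusted p under 0.05 the counts were 335 higher (2.35%) and 303 lower (2.13%), and 51.7% of all genes tested had a log2 fold change above 0. In 4 genes (0.0281%) every anti-PD-1 NR tumour lay below every vehicle tumour: Dbp, Tef, Per2 and Per3. In 1 gene (0.00702%), Spon2, every anti-PD-1 NR tumour lay above every vehicle tumour.

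**Figure D1:**
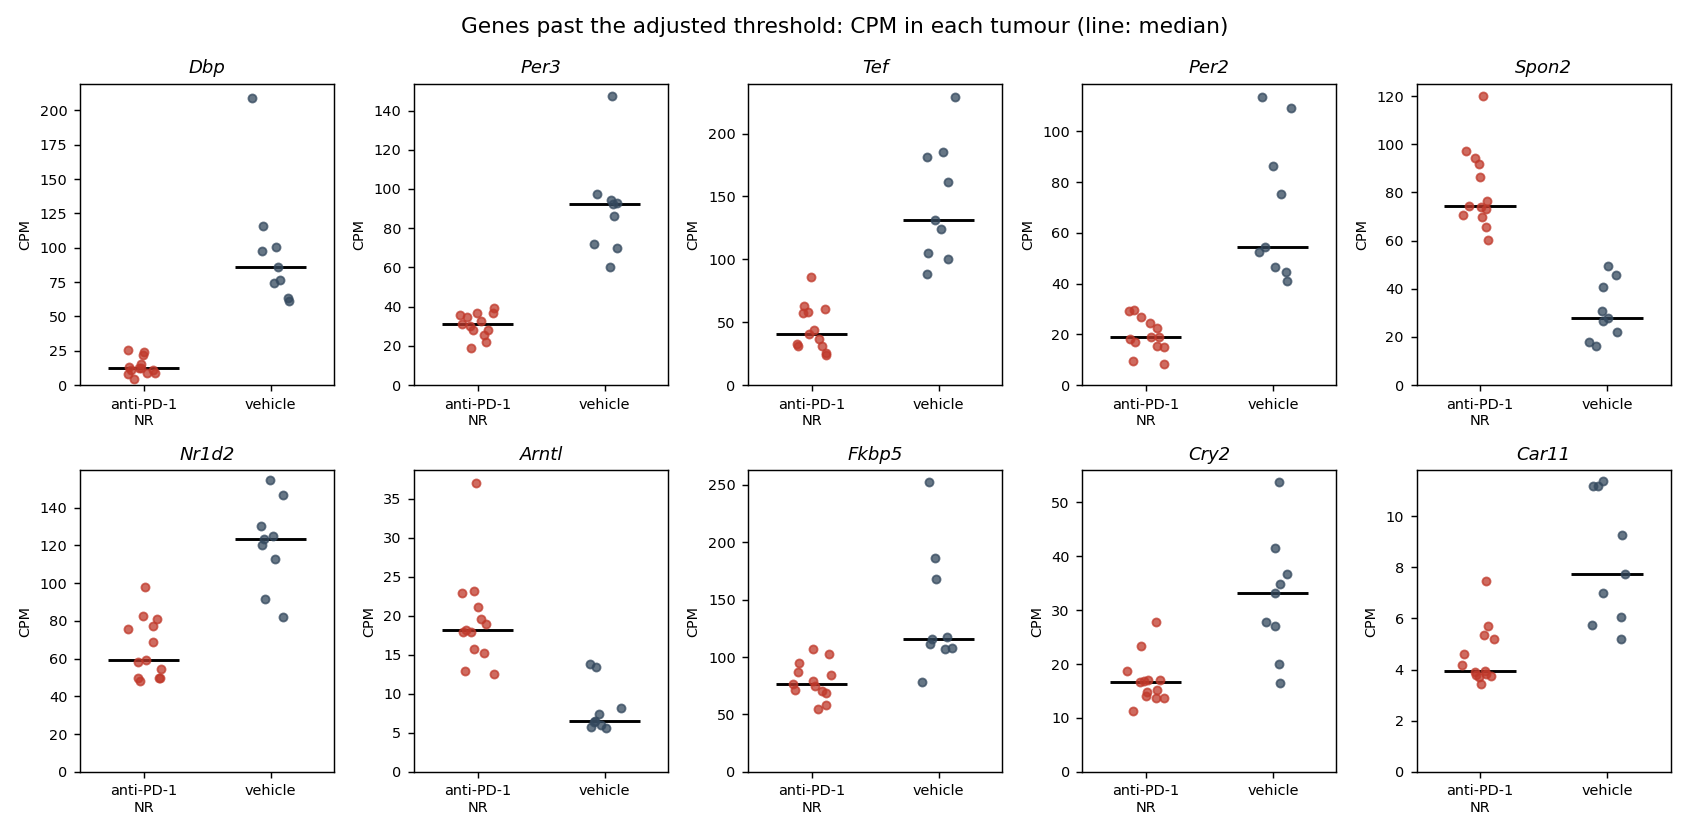
CPM of the 10 genes past the adjusted threshold in each of 13 anti-PD-1 NR and 9 vehicle tumours, one point per tumour, with the median as a line and a linear axis from 0. The 2 groups do not overlap for Dbp, Per3, Tef, Per2 and Spon2, and overlap for the other 5 genes.

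Dbp, a transcription factor whose RNA follows the clock with a large swing in many tissues, showed the largest change of the 10 called genes. It had 4.58 CPM in the lowest, 12.5 CPM in the median and 25.8 CPM in the highest anti-PD-1 NR tumour, against 61.3, 86.2 and 209 CPM in vehicle. All 13 anti-PD-1 NR tumours were below the lowest vehicle tumour, and the fitted level was 7.18-fold lower (log2 fold change -2.84, SE 0.31, adjusted p 1.11e-07). These are bulk tumours, in which fewer cells of a type and less RNA per cell cannot be told apart. Tef, its close relative, had 24.1, 40.4 and 85.8 CPM in the lowest, median and highest anti-PD-1 NR tumour, against 88.6, 131 and 229 CPM in vehicle. The groups came close to each other at the edge but did not overlap (log2 fold change -1.68, SE 0.21, adjusted p 1.85e-06). Of the other members of the list of 7 clock outputs, all tested, none passed the adjusted limit. Hlf, the third factor of this family, was near the detection limit with medians of 1.56 CPM in anti-PD-1 NR and 3.19 CPM in vehicle (log2 fold change -0.93, SE 0.43). Nfil3, which binds the same DNA element as Dbp and opposes it, had medians of 23.1 CPM and 13.3 CPM in those groups (log2 fold change 0.58, SE 0.24, adjusted p 0.9997). The cell cycle kinase gene Wee1 had a log2 fold change of -1.02 and an adjusted p of 0.125. In all, 6 of the 7 outputs had a negative log2 fold change, with a list median of -0.93 beside 0.007 over all genes tested. That median was -0.56 without vehicle replicate 6 and -0.40 without the libraries that carry other tissue.

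Of the repressors of the clock, 4 fell as well. Per3 had 18.9, 31.2 and 39.4 CPM in the lowest, median and highest anti-PD-1 NR tumour, against 60.4, 92.5 and 147 CPM in vehicle. The highest antibody-treated tumour lay well under the lowest vehicle tumour (log2 fold change -1.55, SE 0.18, adjusted p 1.72e-07). Per2 had 8.21, 18.98 and 29.4 CPM in anti-PD-1 NR, against 40.9, 54.5 and 114 CPM in vehicle, again with no overlap (log2 fold change -1.83, SE 0.26, adjusted p 2.08e-05). Nr1d2, also called REV-ERB beta, is a nuclear receptor that represses Arntl. It had 48.0, 59.2 and 97.9 CPM in anti-PD-1 NR, against 82.01, 124 and 154 CPM in vehicle. Of the 13 antibody-treated tumours, 11 were below the lowest vehicle tumour (log2 fold change -0.88, SE 0.13, adjusted p 7.71e-05). Cry2, a partner of the Per proteins, had 11.3, 16.7 and 27.9 CPM in anti-PD-1 NR, against 16.5, 33.1 and 53.8 CPM in vehicle. Here the groups overlapped, and 6 tumours lay below the lowest vehicle value (log2 fold change -0.93, SE 0.19, adjusted p 0.0162). The Cry2 call rests on single libraries: without vehicle replicate 4, 6 or 8 it missed the limit, with adjusted p up to 0.0913.

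Of the 10 repressors, all tested, the other 6 did not pass the adjusted limit, and each of them had a negative log2 fold change. Per1 had 3.78, 18.3 and 37.99 CPM in anti-PD-1 NR, against 12.7, 46.01 and 79.3 CPM in vehicle (log2 fold change -1.26, adjusted p 0.0849). Nr1d1, the partner of Nr1d2, had a log2 fold change of -1.05 (adjusted p 0.124), and Cry1 one of -0.81 (adjusted p 0.134). All 10 repressors had an unadjusted p under 0.05 and a value below 0, where 2.13% of all genes did. Their median log2 fold change was -0.99 and ranged from -1.10 to -0.86 when single libraries were left out.

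The activator Arntl, also called BMAL1, ran the opposite way. It had 12.5, 18.1 and 37.1 CPM in the lowest, median and highest anti-PD-1 NR tumour, against 5.61, 6.46 and 13.8 CPM in vehicle. Of the 13 antibody-treated tumours, 11 lay above the highest vehicle tumour (log2 fold change 1.26, SE 0.23, adjusted p 0.00253). Its partner Clock had medians of 36.6 CPM in anti-PD-1 NR and 29.1 CPM in vehicle (log2 fold change 0.34, SE 0.20), and Rora, an activator of Arntl, had a log2 fold change of -0.06 with SE 0.27. Of the 5 activators listed, 3 were tested.

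The sequences just before the starts of these genes were read from RefSeq for GRCm38.p6, which has 11 start sites for 8 of the 10 genes. Per2 and Spon2 have no entry. A set of 5 short motifs was searched on both strands in the 250 bases before each start: CACGTG, the E-box bound by Arntl with Clock; TTATGTAA and TTACGTAA, forms of the D-box bound by Dbp, Tef, Hlf and Nfil3; AGGTCA, the half-site of nuclear receptors such as Nr1d2; and AGAACA, a half-site of the glucocorticoid receptor. CACGTG was in 3 of the 11 windows, those of both Tef starts and of Fkbp5, where 6.02% of all 32851 promoter windows hold it. Windows of the same gene are not independent, and those of Arntl overlap each other, as do those of Car11. TTATGTAA was in 1 window, where 0.819% of all windows hold it, and TTACGTAA was in none, where 0.113% do. AGGTCA was in 1 window (14% of all windows), that of Nr1d2, and AGAACA in 1 window (16.1% of all windows). The windows of Per3, Tef and Fkbp5 are printed because they hold the clock elements, with matches to any of the motifs in capitals, 5′ to 3′ on the strand of the gene. That of Per3 is chr4:151044666-151044915 on the minus strand, with TTATGTAA beginning 205 and 158 bases before the start. Tef has a start on the plus strand after chr15:81802423-81802672, with CACGTG at 127 bases, and another after chr15:81811164-81811413, with AGAACA at 209 and CACGTG at 138 bases. That of Fkbp5 is chr17:28486150-28486399 on the minus strand, inside the span of the gene in the GENCODE annotation, with CACGTG at 169 bases.
Per3: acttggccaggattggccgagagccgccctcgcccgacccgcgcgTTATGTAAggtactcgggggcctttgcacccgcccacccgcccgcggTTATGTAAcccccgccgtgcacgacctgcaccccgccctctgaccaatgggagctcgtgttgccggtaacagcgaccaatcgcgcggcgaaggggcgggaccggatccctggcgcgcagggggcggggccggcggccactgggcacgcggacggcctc
Tef, first start: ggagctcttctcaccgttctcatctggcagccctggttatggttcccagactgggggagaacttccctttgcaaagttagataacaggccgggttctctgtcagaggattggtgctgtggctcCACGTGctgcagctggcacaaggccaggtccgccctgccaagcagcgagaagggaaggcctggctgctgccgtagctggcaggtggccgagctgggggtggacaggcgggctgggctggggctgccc
Tef, other start: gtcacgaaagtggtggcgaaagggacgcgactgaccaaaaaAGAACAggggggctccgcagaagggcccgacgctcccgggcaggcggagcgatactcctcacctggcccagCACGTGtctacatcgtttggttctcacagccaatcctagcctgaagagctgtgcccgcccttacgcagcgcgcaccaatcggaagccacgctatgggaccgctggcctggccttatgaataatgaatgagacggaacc
Fkbp5: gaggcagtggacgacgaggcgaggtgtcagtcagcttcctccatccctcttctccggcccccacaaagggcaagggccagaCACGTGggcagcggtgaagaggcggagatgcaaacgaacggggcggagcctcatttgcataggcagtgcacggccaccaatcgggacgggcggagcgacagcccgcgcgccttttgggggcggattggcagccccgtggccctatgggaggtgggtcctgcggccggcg

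The same letters occur in many other promoters, and a match describes the window only. None of the motifs was in the windows of Dbp, Arntl, Cry2 or Car11.

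Car11, a carbonic anhydrase-related gene, lies next to Dbp in the genome. On GRCm38, Car11 spans chr7:45699843-45704682 and Dbp chr7:45705088-45710203, both on the plus strand and without overlap. Car11 had 3.45, 3.96 and 7.47 CPM in the lowest, median and highest anti-PD-1 NR tumour, against 5.19, 7.75 and 11.4 CPM in vehicle. Of the antibody-treated tumours, 10 were below the lowest vehicle tumour (log2 fold change -0.88, SE 0.19, adjusted p 0.0306). At this low level the call was kept in 11 of 22 fits that each left out a library, with adjusted p up to 0.136. It was also lost with no filter on low counts (adjusted p 0.0631), with limma-trend on the deposited log2 table (0.0833) and without the libraries that carry other tissue (0.264). Among single libraries it was lost without any 1 of vehicle replicates 4, 6, 7 and 8 or of anti-PD-1 NR replicates 3, 4, 5, 6, 8, 10 and 11.

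Some of these genes share ground with others in the annotation, and the strand setting of the counting is not known. Dbp overlaps 737 bases of Sphk2, a sphingosine kinase gene on the opposite strand, which had medians of 34.8 CPM in anti-PD-1 NR and 28.5 CPM in vehicle. Per3 lies inside Camta1 on the same strand, over 41014 bases, and Camta1 had medians of 18.4 CPM in anti-PD-1 NR and 23.1 CPM in vehicle. Neither neighbour showed a difference as large as that of Dbp or Per3. The genes that overlap Tef, Fkbp5 and Cry2 on the opposite strand had medians of at most 0.221 CPM in either group.

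Tumours given celecoxib allow the antibody to be examined again in samples that the first comparison did not use. The label NR selects differently in each: 13 NR and 4 R tumours under the antibody alone, 4 NR and 12 R under the combination. Selection by response and celecoxib therefore cannot be told apart in the difference between both antibody effects. Antibody effect here names a difference in level between groups with and without the antibody, whatever its cause. In anti-PD-1 plus celecoxib NR against celecoxib, edgeR called 0 genes (0%). Before adjustment 689 genes had a p under 0.05, and the calls were 10 by DESeq2 and 0 by limma-voom. Celecoxib replicates 1 and 3 carried skeletal muscle transcripts, with list means of 7.20 and 6.51 log2 CPM. Replicate 3 also carried skin transcripts, with a list mean of 5.76 log2 CPM. Dbp had 31.6, 96.0, 155 and 35.1 CPM in the 4 anti-PD-1 plus celecoxib NR tumours, against 46.3 CPM in the lowest, 71.3 CPM in the median and 110 CPM in the highest of 7 celecoxib tumours. The combination tumours lay on both sides of the celecoxib range, 2 below it, 1 inside and 1 above (log2 fold change -0.02, SE 0.44). The difference between both antibody effects on Dbp, without against with celecoxib, was -2.82 on the log2 scale (SE 0.53, adjusted p 0.0391), the only call among 14247 genes (0.00702%). Its size ranged from -3.11 to -2.28 over 19 other settings, and it passed the adjusted limit in 8 of them. Among these, single libraries were left out only from the celecoxib and combination groups. Without celecoxib replicate 2, 3, 4, 5, 6 or 7, or combination replicate 2 or 3, the adjusted p lay above the limit, at most at 0.802. The call was also lost with limma-voom (adjusted p 0.121). With edgeR it was lost with no filter on low counts (0.115) and without the libraries that carry other tissue (0.364).

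The other clock genes gave smaller differences between these antibody effects that did not pass the adjusted limit with edgeR. DESeq2 called Tef (adjusted p 0.00199) and Nr1d2 (adjusted p 0.017), and Tef also passed with edgeR without combination replicate 1 (adjusted p 0.0156). With edgeR on all libraries Tef came closest, with log2 fold changes of -1.68 without and 0.16 with celecoxib, a difference of -1.84 (SE 0.37, adjusted p 0.0659). Tef had 79.0, 238, 161 and 112 CPM in the combination NR tumours, against a range of 95.8 to 148 CPM in celecoxib tumours. Arntl had 12.5, 2.95, 5.05 and 6.70 CPM in combination NR tumours, against 3.46 to 9.55 CPM in celecoxib tumours, and its log2 fold change there was 0.0089 with SE 0.33. Per3 had a log2 fold change of -0.26 with SE 0.26 and Per2 one of -0.32 with SE 0.38 in the celecoxib background. Cry1 was similar in both, at -0.81 without and -0.92 with celecoxib. The list medians of the repressors were -0.99 without and -0.24 with celecoxib, beside 0.007 and -0.028 over all genes.

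**Figure D2:**
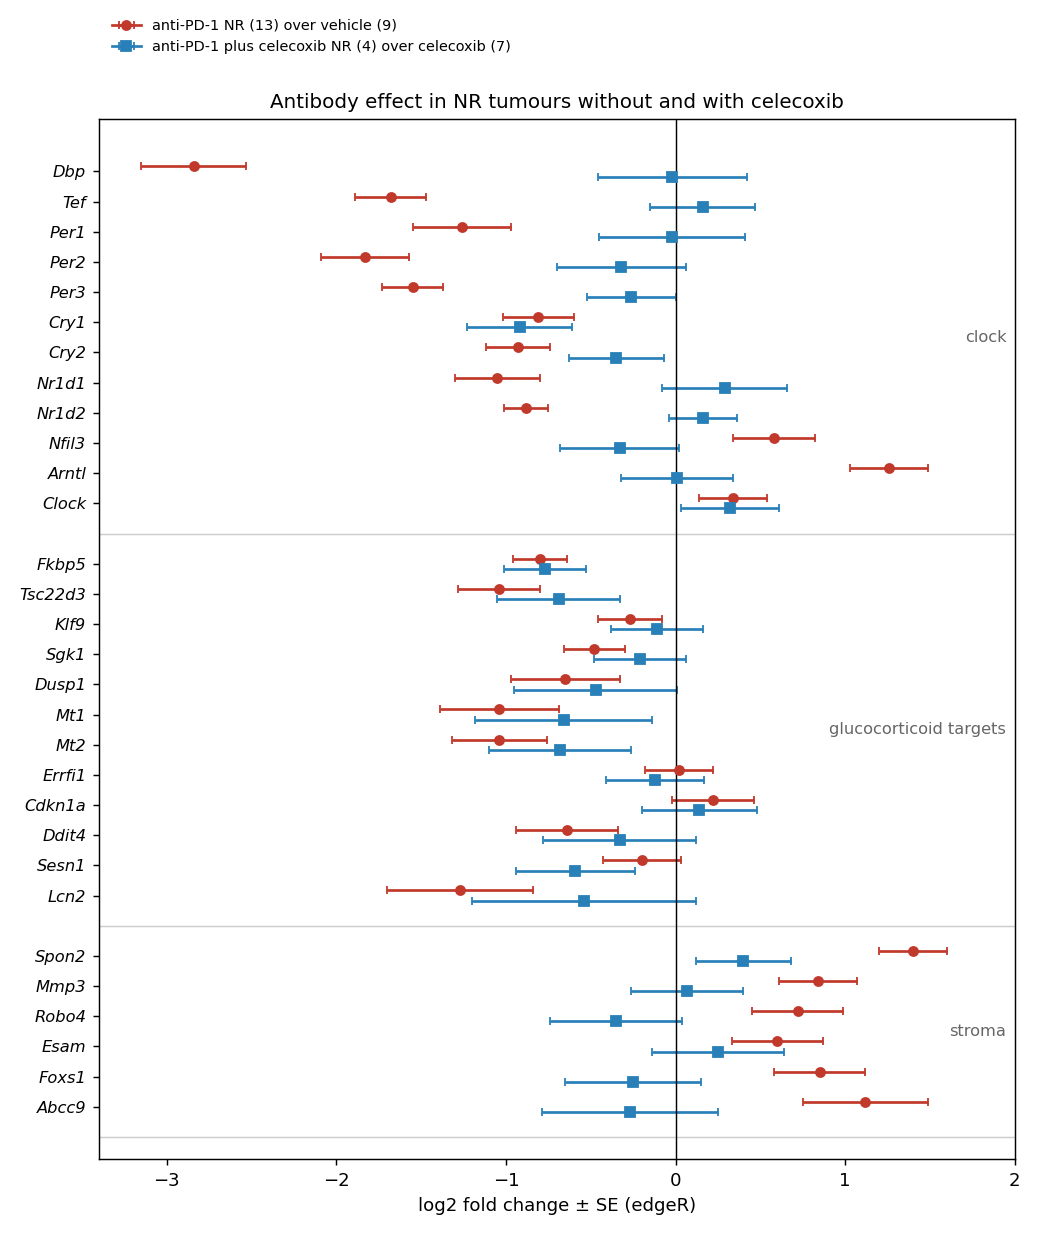
Log2 fold change with its standard error for 12 clock genes, 12 of 14 tested glucocorticoid targets (Per1 stands with the clock genes, and Zbtb16, at -2.95 and -4.10, is not drawn) and the 2 genes with the smallest p of the fibroblast, endothelial and pericyte lists, in 13 anti-PD-1 NR over 9 vehicle tumours (circles) and in 4 anti-PD-1 plus celecoxib NR over 7 celecoxib tumours (squares). The clock genes Dbp, Tef, Per2, Per3 and Arntl lie far from 0 for the circles and near 0 for the squares, while Fkbp5 lies at -0.80 and -0.77.

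Tumours labelled as responders to the antibody alone gave low Dbp as well. The 4 anti-PD-1 R tumours had 30.2, 49.4, 11.7 and 8.86 CPM, all below the lowest vehicle tumour at 61.3 CPM. Arntl had 18.02, 29.7, 18.8 and 11.8 CPM in the same tumours, 3 of them above the highest vehicle tumour at 13.8 CPM. Anti-PD-1 R replicates 2 and 3 carried skeletal muscle transcripts, with list means of 3.53 and 3.57 log2 CPM. Between anti-PD-1 R and anti-PD-1 NR tumours there was no call by edgeR (0 of 14247, 0%), DESeq2 (0) or limma-voom (0), and 923 genes had a p under 0.05 before adjustment. Dbp had a log2 fold change of 0.86 in R over NR. Nr1d1 had 62.4 and 65.8 CPM in 2 of the anti-PD-1 R tumours, against 10.6 to 27.6 CPM in anti-PD-1 NR, and the other 2 R tumours lay inside the NR range (log2 fold change 1.17). This comparison shares the 13 anti-PD-1 NR tumours with that against vehicle, so the 2 are not independent.

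Targets of the glucocorticoid receptor, which answers stress hormone, were a further group with many low values. Fkbp5 encodes a chaperone that limits the receptor and is itself induced by it. It had 54.4, 76.3 and 107 CPM in the lowest, median and highest anti-PD-1 NR tumour, against 78.1, 116 and 253 CPM in vehicle. The groups overlapped, and 7 antibody-treated tumours were below the lowest vehicle tumour (log2 fold change -0.80, SE 0.16, adjusted p 0.0112). Without vehicle replicate 4 or 6, the 2 tumours with the highest Fkbp5, the call was lost, with adjusted p up to 0.105. It was also lost without the libraries that carry other tissue (log2 fold change -0.77, adjusted p 0.145). In the celecoxib background the 4 combination NR tumours had 73.2, 84.2, 87.4 and 78.8 CPM, against 83.8, 136 and 240 CPM in the lowest, median and highest celecoxib tumour. The log2 fold change there was -0.77 (SE 0.24, unadjusted p 0.0023), and the difference between both antibody effects was -0.04 with SE 0.28.

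Of 16 glucocorticoid targets 14 were tested. Fkbp5 was the 1 called, 12 had a negative log2 fold change and 10 of these had an unadjusted p under 0.05, where 2.13% of all genes did. The list median was -0.73, and -0.65 at the nearest to 0 when single libraries were left out. In anti-PD-1 plus celecoxib NR against celecoxib, 13 of 14 were negative, with a median of -0.50 beside -0.028 over all genes. Tsc22d3, the leucine zipper protein GILZ that carries anti-inflammatory effects of the hormone, had 49.6, 86.3 and 202 CPM in anti-PD-1 NR, against 59.8, 213 and 345 CPM in vehicle (log2 fold change -1.04, SE 0.24, adjusted p 0.0866). The metallothioneins Mt1 and Mt2, which bind metal ions, both had log2 fold changes of -1.04, with adjusted p of 0.72 and 0.223. Klf9, a further target, had a log2 fold change of -0.27 and an adjusted p of 0.9997. Zbtb16 had the lowest value, -2.95, but was near 0 in most tumours, and its vehicle mean rests on 1 tumour at 30.0 CPM. Per1 counts in this list and among the clock repressors. Adipocyte transcripts were highest in vehicle replicate 6, where Fkbp5 was also high, and their part in these values was not tested.

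Spon2 was the clearest gene with a higher level. It encodes spondin 2, a secreted matrix protein that also acts on innate immune cells, and had 60.3, 74.2 and 120 CPM in the lowest, median and highest anti-PD-1 NR tumour, against 16.04, 27.9 and 49.4 CPM in vehicle. No antibody-treated tumour reached down to the vehicle range (log2 fold change 1.40, SE 0.20, adjusted p 3.13e-05), and all 22 fits that left out a library kept the call. The anti-PD-1 R tumours had 35.3, 43.4, 46.7 and 58.3 CPM, each below the lowest anti-PD-1 NR tumour (log2 fold change -0.82 for R over NR, unadjusted p 0.0038, not past the adjusted limit). Combination NR tumours had 49.2, 38.5, 29.5 and 36.1 CPM, against 10.9 to 40.7 CPM in celecoxib tumours (log2 fold change 0.40, SE 0.28).

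Spon2 was the 1 called member of 22 fibroblast and matrix genes, of which 19 had a positive log2 fold change, with a list median of 0.21. That list was chosen with earlier results of these data known, so its call adds nothing to that of Spon2 itself. The collagen gene Col1a2 had medians of 2992 CPM in anti-PD-1 NR and 2032 CPM in vehicle (log2 fold change 0.33, SE 0.20). Pericytes, the mural cells of small vessels, had 10 of 10 markers above 0 with a median of 0.75, and 5 of them at an unadjusted p under 0.05, where 2.35% of all genes were. Rgs5, a regulator of G protein signalling and a pericyte marker, had 16.8, 63.8 and 104 CPM in anti-PD-1 NR, against 4.26, 34.9 and 52.5 CPM in vehicle (log2 fold change 0.91, SE 0.31, adjusted p 0.737). Endothelial markers were above 0 in 19 of 19, with a median of 0.46, and Robo4, a receptor of vessel walls, had a log2 fold change of 0.72 with SE 0.27. Neither vascular list had a call by edgeR, DESeq2 or limma-voom. Vehicle replicate 8 had the lowest pericyte and endothelial means, and without it the medians were 0.60 and 0.34. With celecoxib they were -0.17 and -0.10.

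Genes next in rank did not pass the adjusted limit with edgeR, while DESeq2 called Btaf1, Exoc3l4, Ccl24, Cd209f, Clca3a1 and Rnu11, with adjusted p between 0.00418 and 0.0472. Mmp9, a gelatinase, had medians of 23.6 CPM in anti-PD-1 NR and 13.8 CPM in vehicle (log2 fold change 0.92, adjusted p 0.23), and Mmp3, stromelysin 1, had medians of 19.3 and 9.56 CPM in those groups (log2 fold change 0.84, adjusted p 0.252). Ccl24, a chemokine for eosinophils, had a log2 fold change of 1.20, Ltc4s, an enzyme of leukotriene synthesis, one of 1.26, and the lectin gene Cd209f one of 1.34, all from medians of at most 6.32 CPM. Btaf1, Exoc3l4 and Leo1 had log2 fold changes of 0.42, 0.42 and 0.47. Among lower genes, Clca3a1 had a log2 fold change of -0.76 (adjusted p 0.0683), and the small nuclear RNA Rnu11 one of -2.50 (adjusted p 0.0713), where 1 vehicle tumour reached 18.7 CPM and the vehicle median was 1.297 CPM.

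No gene of the immune lists passed the adjusted limit. Over 16 lists of immune cells and their responses, 197 genes were tested, edgeR, DESeq2 and limma-voom each called 0, and by edgeR 6 were higher and 1 lower at an unadjusted p under 0.05, where 2.35% of all genes were higher and 2.13% lower. The T cell list had 18 of 22 members below 0, with a median log2 fold change of -0.11, and cytotoxic lymphocyte genes had 9 above and 8 below 0, with a median of 0.0042. Interferon-gamma response genes had a median of -0.05, and all 24 type I interferon genes were above 0, with a median of 0.20 that was 0.08 without vehicle replicate 8. Macrophage markers had 12 of 16 above 0, with a median of 0.16. The other medians of immune lists lay between -0.28 for inhibitory receptors and 0.27 for neutrophils, with 0.03 for regulatory T cells, 0.02 for NK cells and 0.02 for B cells. Antigen presentation stood at -0.12 for MHC class I and 0.10 for MHC class II genes. Several of these medians changed sign when libraries that stand apart were left out. Without vehicle replicate 8 they were -0.16 for cytotoxic lymphocytes, -0.11 for regulatory T cells and -0.12 for NK cells. B cells then had -0.16 and MHC class II genes -0.03. Without the libraries that carry other tissue, the medians were 0.03 for T cells, 0.0026 for interferon-gamma response and 0.0046 for MHC class I.

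The immune genes spread widely inside the anti-PD-1 NR group. Cd8a, a subunit of the co-receptor of cytotoxic T cells, had 0.164, 1.41 and 45.8 CPM in the lowest, median and highest anti-PD-1 NR tumour, against 0.554, 8.93 and 25.5 CPM in vehicle. The antibody-treated tumours reached beyond the vehicle tumours at both ends, and the log2 fold change was -0.36 with SE 0.78. Pdcd1, which encodes PD-1 itself, had 0.787, 2.11 and 27.5 CPM in anti-PD-1 NR, against 0.665, 8.70 and 22.2 CPM in vehicle (log2 fold change -0.48, SE 0.74). Gzmb, the killing enzyme granzyme B, had a log2 fold change of -0.15 with SE 0.52, and Ifng, which encodes interferon-gamma, one of 0.20 with SE 0.69. The PD-1 ligand gene Cd274 and the T cell chemokine gene Cxcl9 had values of 0.11 with SE 0.41 and -0.23 with SE 0.52. Foxp3, the factor of regulatory T cells, stood at 0.06 with SE 0.41. With standard errors of this size, these 22 tumours allow no statement that the groups were alike.

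The highest values in these lists came mostly from 1 tumour, with another close behind. Anti-PD-1 NR replicate 2 had the highest mean of its group on 15 of the 16 immune lists. On the T cell list it had 3.94 log2 CPM, where the group median was 1.68. Vehicle tumours ran from 0.81 to 3.46 there, with a median of 2.42. Anti-PD-1 NR replicate 11 had 3.48 on that list, and 3.42 against 3.63 in replicate 2 on inhibitory receptors. Without replicate 2 the T cell list median was -0.48 and the cytotoxic list median -0.41. The medians were then -0.58 for inhibitory receptors, -0.16 for regulatory T cells, -0.34 for NK cells and -0.28 for B cells. MHC class II genes then had a median of -0.22 and macrophage markers one of -0.04. Replicate 2 had 4.58 CPM of Dbp, the lowest of the 22. The calls of Dbp, Tef, Per2, Per3, Nr1d2 and Arntl held without it, as in each fit that left out another library.

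**Figure D3:**
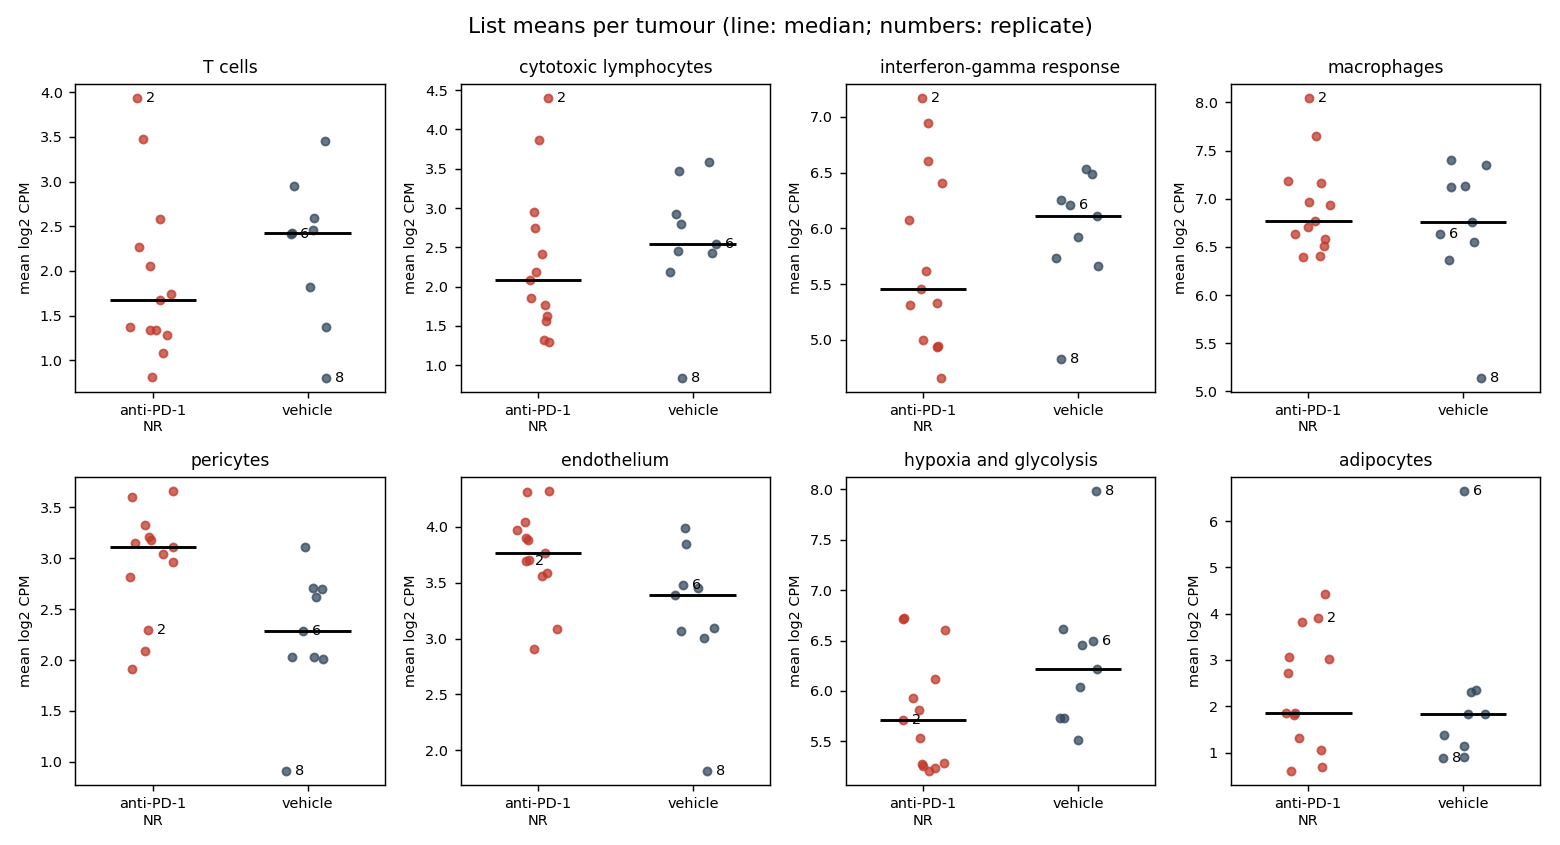
Mean log2 CPM of 8 gene lists in each of 13 anti-PD-1 NR tumours and 9 vehicle tumours, with the group median as a line and the replicate number beside anti-PD-1 NR replicate 2 and vehicle replicates 6 and 8. Among vehicle tumours, replicate 8 is lowest on the immune and vascular lists and highest on the hypoxia list, and vehicle replicate 6 is highest on the adipocyte list.

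Genes of the hypoxia response and of glycolysis mostly had values below 0 in anti-PD-1 NR over vehicle, but none passed the adjusted limit by edgeR, DESeq2 or limma-voom. Of 26 tested, 24 had a negative log2 fold change and 8 an unadjusted p under 0.05, where 2.13% of all genes were lower at that p, with a median of -0.66. Car9, a carbonic anhydrase induced by low oxygen, had 6.02, 19.7 and 182 CPM in anti-PD-1 NR, against 15.5, 78.1 and 521 CPM in vehicle (log2 fold change -1.36, SE 0.65). The list median was -0.21 without vehicle replicate 8, whose list mean of 7.99 log2 CPM exceeded the next vehicle tumour at 6.61. In the celecoxib background the median was -0.51.

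Red blood cell and mitochondrial transcripts had values above 0 in both antibody comparisons, again with no call by edgeR, DESeq2 or limma-voom. The 5 tested globin and haem genes had a median log2 fold change of 1.10 against vehicle and 1.20 in combination NR over celecoxib, all above 0 in both. The 7 tested mitochondrially encoded genes had medians of 0.54 and 0.57 in these comparisons, all above 0 in both. In each list, 4 members were higher at an unadjusted p under 0.05 against vehicle, where 2.35% of all genes were. Blood content was not measured in another way. Markers of other tissue depend on few libraries. Skeletal muscle genes had a median of 1.61, which lay between 1.11 and 2.35 with single libraries left out. It was -1.15 without the libraries chosen for carrying other tissue. That choice took muscle-rich tumours from anti-PD-1 NR only, while vehicle replicates 2 and 7, with means of 2.03 and 2.60, stayed in. Adipocyte genes had a median of -1.19, and of 1.35 without vehicle replicate 6. Genes of the prostaglandin pathway, which COX-2 feeds, had a median of 0.05, and those of tumour-promoting inflammation one of -0.18, which was 0.13 without vehicle replicate 8. The unfolded protein response had a median of 0.15 and cholesterol synthesis one of -0.05. Proliferation genes had a median of 0.08, and Mki67, a marker of dividing cells, had a log2 fold change of 0.18 with SE 0.16.

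**Figure D4:**
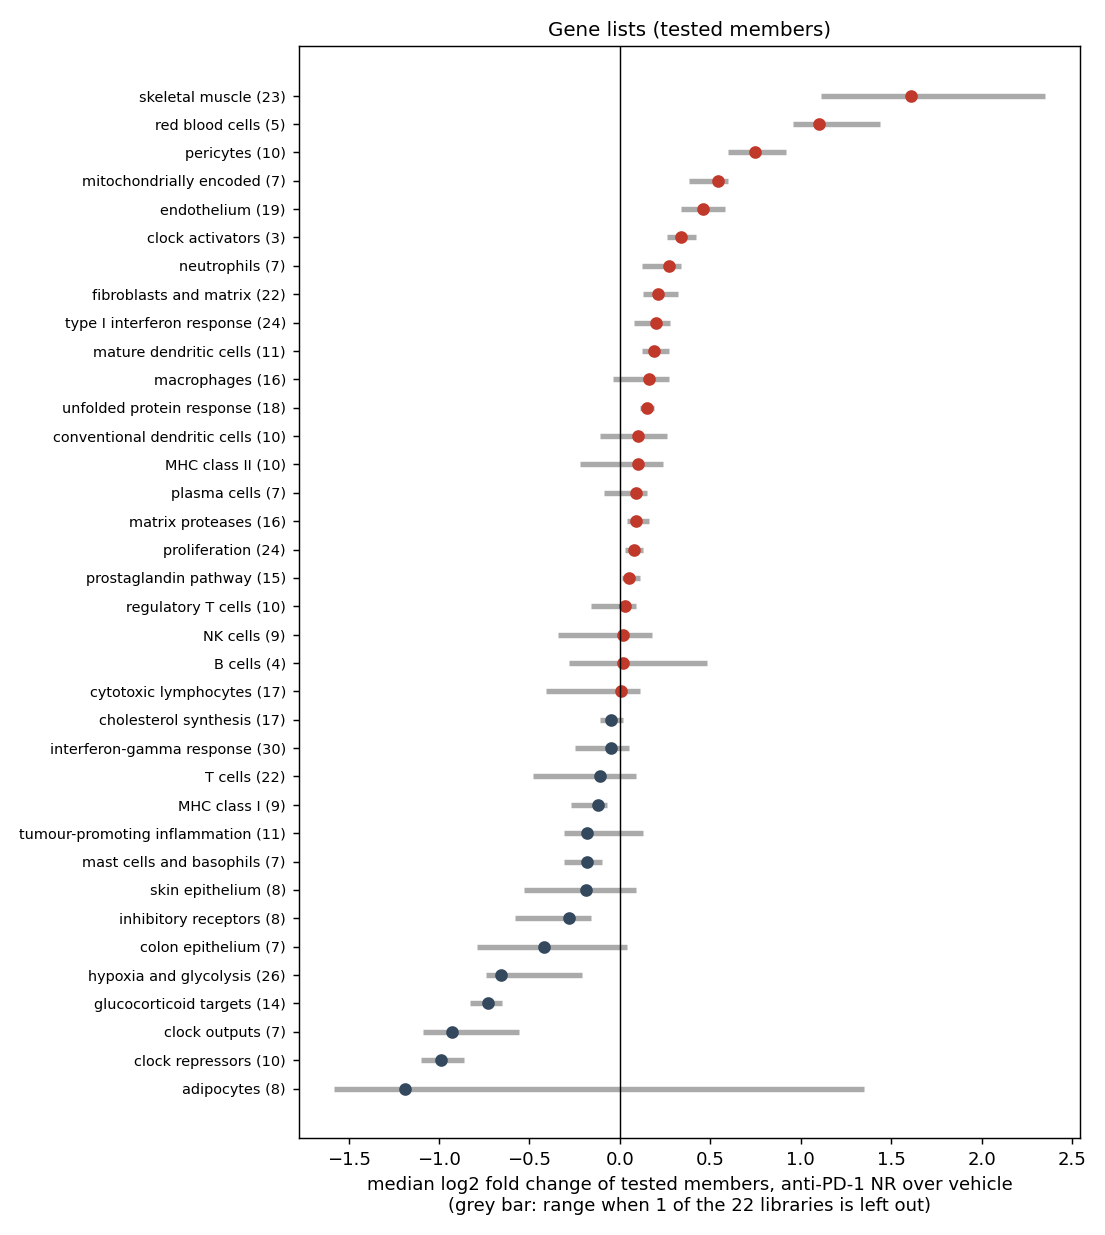
Median log2 fold change of the tested members of 36 gene lists in anti-PD-1 NR over vehicle tumours (points), with the range over 22 fits that each left out a library (grey bars). Clock repressors and glucocorticoid targets stay at or below -0.65 and pericytes at or above 0.60 in these fits, while the bars of adipocytes and several immune lists cross 0.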

How the data were processed

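RNA of the tumours was sequenced with the QuantSeq 3′ FWD kit, which reads the 3′ end of transcripts, per the labels' protocols. The deposited table holds raw counts per Ensembl gene (39179 genes, 37607 with a symbol in GENCODE vM21 on GRCm38). The submitters' processing notes name bcl2fastq, STAR, featureCounts, limma and the builds mm10 and GRCm38. The sources used here give no versions and no strand setting. A deposited log2 CPM table of 16559 genes equals log2 of the count plus 0.5 minus a constant per library (largest SD 3.74e-10) and served as an alternative.

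Counts were fitted in edgeR 4.0.16 (R 4.3.3) with TMM normalization, filterByExpr and robust quasi-likelihood fits over all 49 libraries in 6 groups, after a check on simulated data. All 14247 genes tested entered the Benjamini-Hochberg adjustment, and 0.05 was the limit. SE is the log2 fold change over the root of F. List means are mean log2 CPM with a prior count of 2. Alternatives used DESeq2 1.42.0, limma 3.58.1 (voom and trend), RLE normalization, no filter, the compared groups alone, a skeletal muscle covariate, non-robust fits, libraries without other tissue (muscle list mean above 3 or skin or adipocyte mean above 5) and each library left out. Total counts ranged from 4251251 to 13671294. Among the 22 anti-PD-1 NR and vehicle libraries, the closest pair had a chi-square of 17.5 per gene, so none of these was a copy. The other libraries were not checked for copies.

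Groups came from the labels, and replicate numbers only name tumours. The members and gene lists were chosen with earlier results of these data known. The genes named are up to 12 called per direction with a mean of at least 2 CPM, the next in rank to fill 10, a panel of 35 genes, the 2 members of each of 36 lists with the smallest p, and called interactions; other list members are named as examples. Some results are not reported here.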

Additional observations from a re-analysis of the deposited data

Results flagged for a closer look

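Within a group, the highest or lowest tumour stood far from the others in 14 of 102 groups of values checked, where chance gives about 1 in 20 for independent values. These are not independent, since lists and genes share tumours. The check covered only some values, and the anti-PD-1 NR group, the largest, was not among them. Celecoxib replicate 3, with a skin list mean of 5.76 log2 CPM (next 0.14), is not among those flagged. Vehicle replicate 8 gave 10 of the 14. It was the lowest vehicle tumour in mean log2 CPM on the lists of regulatory T cells (1.47, next 2.25), type I interferon response (4.99, next 5.86), macrophages (5.14, next 6.37), mature dendritic cells (2.31, next 3.30), mast cells and basophils (1.38, next 2.78), the prostaglandin pathway (3.53, next 3.91), endothelium (1.82, next 3.01) and pericytes (0.91, next 2.01). It was the highest on hypoxia and glycolysis (7.99, next 6.61) and for Ptgs2, the COX-2 gene that celecoxib targets, on the log2(CPM + 1) scale (5.91, next 4.13). Vehicle replicate 6 was the highest on the adipocyte list (6.65, next 2.35) and the skin list (1.27, next 0.26). On the log2(CPM + 1) scale, celecoxib replicate 4 was the lowest for Tef (6.60, next 7.04) and celecoxib replicate 3 for Spon2 (3.57, next 4.66).

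The antibody effect on Dbp in NR tumours differed without and with celecoxib by -2.82 on the log2 scale (adjusted p 0.03908, edgeR's quasi-likelihood test). All 13 anti-PD-1 NR tumours lay below all 9 vehicle tumours, while the 4 combination NR tumours lay on both sides of the celecoxib tumours. Selection by response also differs between the antibody alone and the combination, and its part was not tested. The hour of collection is not given for any group, and its part was not tested either.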

How the results depend on the processing

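Dbp, Per3, Tef, Per2, Spon2, Nr1d2 and Arntl passed the adjusted limit in all 22 fits that left out a library and in all 9 other settings. DESeq2 called 32 genes in anti-PD-1 NR against vehicle in place of 10, shared all 10 and added, among others, Per1, Nr1d1, Cry1, Wee1, Tsc22d3 and Zbtb16. Leaving out single libraries gave 7 to 17 calls, with 17 without vehicle replicate 1. The count for the difference between both antibody effects was 12 with DESeq2, 0 with limma-voom, 0 with no filter on low counts, 0 without the libraries that carry other tissue, and 0 to 2 with single celecoxib or combination NR libraries left out (vehicle and anti-PD-1 NR libraries were not left out here). For anti-PD-1 plus celecoxib NR against celecoxib it was 10 with DESeq2, 1 with the non-robust fit and 0 to 1 with single libraries left out. For anti-PD-1 R against anti-PD-1 NR it was 0 in every setting run. The cause of these shifts was not tested. The 12 DESeq2 calls for the difference between both antibody effects included the clock genes Dbp, Tef and Nr1d2. The others were Tchh, Art1, Mylpf, Ckmt2, Gm10229, Krt33b, Krtap3-3, Krtap11-1 and Krtap19-9b. Celecoxib replicates 1 and 3, which carried skeletal muscle transcripts and in replicate 3 also skin transcripts, are in this comparison. Their part in these calls was not tested.

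Of 46 named genes, 6 changed sign in some setting, none of them called. Prf1 (0.0042 as reported) had a log2 fold change of -0.44 with limma-voom, -0.0034 with no filter and -0.37 with limma-trend on the deposited table. Ifng (0.20) had -0.68 with limma-voom and -0.62 with limma-trend, and Cd274 (0.11) had -0.25 and -0.17. With single libraries left out, Prf1 ranged from -0.59 to 0.25, Ifng from -0.28 to 0.42, Cd274 from -0.22 to 0.19, Cd4 from -0.10 to 0.38, Foxp3 from -0.14 to 0.30 and Ptgs2 from -0.56 to 0.20. No paired analysis was possible because the labels pair no tumours and replicate numbers only name them. Genes counted at about 1 CPM or less are limited by depth.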
